A study of Bos taurus with 170 samples.

Results

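Molecular chaperones help other proteins fold, keep them from clumping and pass them on for assembly or destruction. The chaperone genes described here were the symbols of the UMI table that start with HSPA, HSPB, HSPD, HSPE, HSPH, HSP90 or DNAJ, those in which CCT or BAG is followed by a digit, and TCP1. This gave 74 of the 10772 genes in the table, and each of the 74 had a UMI in at least 1 cell that was kept.

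The values came from single blastomeres of bovine (Bos taurus) embryos made by maturing and fertilising slaughterhouse oocytes in the laboratory. The study asked how blastomeres differ around the time the embryo's own genome becomes active. It took 6 embryos on Day 2, at the 8-cell stage, and 8 embryos on Day 3, at the 16-cell stage; none received a treatment, all were cultured at 39 °C without cumulus cells, and the study picked embryos by their cleavage timing. mRNA was counted by SCRB-Seq, which tags the 3′ end of each captured molecule with a unique molecular identifier (UMI), so that a gene's count does not scale with its length and levels of different genes can be set side by side without a length correction. Reads shared with near-identical copies, and how well each 3′ end is captured and annotated, can still set genes apart, which bears on every ratio between genes given here. Counts of all cells with 2000 or more UMI were summed per embryo, because cells of 1 embryo are not independent replicates. Day 2 embryos gave 43 cells and 438899 to 920192 UMI each, and Day 3 embryos gave 118 cells and 294912 to 600185 UMI each. Chaperone genes took 6892 to 14635 of the UMI of a Day 2 embryo and 3881 to 8597 of those of a Day 3 embryo. The unit of a level is CPM, which is a gene's UMI per 1000000 UMI on genes in that embryo. A CPM value is a share of the captured mRNA, and a change in mRNA per cell cannot be read from it.

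Some libraries differed in ways that overlap with the days. Of 170 cells, 161 were kept, and the 170 share 93 cell barcodes, 77 of which were used by 2 cells. By this reuse all Day 2 embryos fall in a first barcode set with Day3-E1 and Day3-E2, Day3-E4 to Day3-E8 fall in a second set, and the set of Day3-E3 is not settled. The ERCC spike-in, RNA added in equal amount to each well, took 1.38% to 1.52% of the UMI in the Day 2 embryos and 1.4% to 1.46% in Day3-E1, Day3-E2 and Day3-E3. It took 2.43% to 2.98% in Day3-E4 to Day3-E8. The sample titles end in p3 for Day2-E1 to Day2-E4, Day3-E5 and Day3-E6, in p2 for Day2-E5, Day2-E6, Day3-E7 and Day3-E8, and in p1 for the other Day 3 embryos. The suffix goes with the hour of collection, since by the study's embryo records the Day 3 embryos of p1 were collected first, those of p3 later and those of p2 last, and on Day 2 too those of p2 were collected after those of p3. Splits by suffix and fits with it as a covariate therefore cannot tell it apart from collection time. For the second barcode set, day and set cannot be told apart.

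HSP70 proteins bind short stretches of unfolded chains in a cycle driven by ATP. J-domain proteins (the DNAJ families) bring clients to HSP70 and trigger the binding, and nucleotide exchange factors (the HSP110 family and some BAG proteins) release the client again. HSP90 takes over near-native clients such as kinases and receptors, while the ring-shaped chaperonins, TRiC in the cytosol and HSPD1 with HSPE1 in mitochondria, enclose a chain while it folds. The endoplasmic reticulum (ER) has its own HSP70 (HSPA5), its own HSP90 (HSP90B1) and its own J-domain partners. Oocytes store chaperone mRNA, and HSP70 genes are known among the genes that embryos transcribe early.

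Together the 74 genes held 16880 ± 1442 CPM in Day 2 embryos (SD, n = 6) and 14133 ± 1457 CPM in Day 3 embryos (SD, n = 8), a ratio of the day means of 0.837. The lowest, median and highest Day 2 embryos had 15628, 16303 and 18814 CPM, and those of Day 3 had 12302, 14033 and 16307 CPM. Of the Day 3 embryos, 7 lay below the lowest Day 2 embryo and Day3-E2 lay within the Day 2 range. The direction of this sum depends on the scaling, since with each embryo's CPM divided by its TMM factor (edgeR's correction for a few abundant genes taking up a library) the ratio was 1.02. HSP90 genes held 34.3% of the chaperone UMI on Day 2 and 27.1% on Day 3, the largest share of any class on both days. TRiC held 16.95% and 16.515%, DNAJC 13.699% and 14.505%, DNAJA 10.52% and 6.88%, DNAJB 9.25% and 16.83%, and HSP70 6.66% and 9.63%.

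Gene by gene, a quasi-likelihood fit in edgeR, with p-values adjusted by Benjamini and Hochberg's method, covered the 5274 genes that passed a filter on low counts, and 53 chaperone genes were among them. Of these, 10 were called higher on Day 3 (18.9% of those tested, against 21.16% of all genes tested) and 8 were called lower (15.09%, against 11.13% of all genes tested). Both shares were near those of all genes, so the number of changed genes is not a result about chaperones. The 10 include DNAJB9, which passed the filter through its Day 3 counts alone. BAG1 would not have passed on its Day 2 embryos alone, nor DNAJC11, one of the 8, on its Day 3 embryos alone. The genes that rose were DNAJB9, DNAJC10, CCT4, DNAJC3, DNAJB1, HSPA8, TCP1, BAG1, BAG2 and DNAJB6, and those that fell were DNAJA1, DNAJA4, HSPD1, DNAJC11, DNAJC13, HSP90AB1, CCT2 and HSP90B1. The median log2 fold change was -0.08 over the 53 chaperone genes and -0.04 over all genes tested. Without TMM scaling the median over all genes moved by -0.23 on the log2 scale, to -0.27, and that of the chaperone genes was -0.34. Without it 5 chaperone genes were called higher (CCT4, DNAJB1, DNAJB9, DNAJC10 and DNAJC3) and 14 lower, which were all 8 named above with CCT8, DNAJB11, DNAJC7, HSPA1A, HSPBAP1 and HSPBP1. DESeq2 called 11 higher and 10 lower, adding BAG3 to the rises and DNAJC7 and HSPA1A to the falls. A gene written as called or not called below is so by edgeR with TMM over all embryos, unless another fit is named. Log2 fold changes are TMM-scaled too, while levels and ranges are plain CPM unless stated. The direction of a fold change can therefore differ from that of the CPM beside it, as for DNAJA2 and HSPA5. Over all genes, 65.5% of the calls were higher on Day 3 with TMM and 47.8% without. When the fit was limited to the first barcode set, which leaves Day3-E1 and Day3-E2 on Day 3, DNAJB1 and DNAJC10 were the chaperone genes still called. With the title suffix as a covariate, 8 chaperone genes were called higher and 11 lower, and 54.98% of all calls were higher. That fit no longer called HSPA8, TCP1 and DNAJB6, and it added BAG3 to the rises and DNAJC7, HSPA1A and HSPBAP1 to the falls. Limited to suffixes p2 and p3 with the same covariate, the counts were 9 and 12, with the same 3 losses and with HSPB1 and DNAJB4 as further additions. Within suffix p3 alone 14 of 57 chaperone genes were called lower and 7 higher, against 555 and 902 of all 5945 genes. The 14 were the 8 falls named first without DNAJC11 and with CCT8, DNAJB11, DNAJC7, HSPA2, HSPA4, HSPA5 and HSPBAP1. The 7 were CCT4, DNAJB1, DNAJB9, DNAJC10 and DNAJC3, with BAG3 and HSPB1 added. Within suffix p2 alone 4 of 52 were called lower and 8 higher, against 472 and 1008 of all 5305 genes. Those 8 were all among the 10 rises. The 4 were DNAJA4 and HSPD1, with DNAJC7 and HSPA1A added. The counts by class, compartment and list given from here on have 21.16% higher and 11.13% lower over all genes tested as their background, and none was tested against it.

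**Figure D1:**
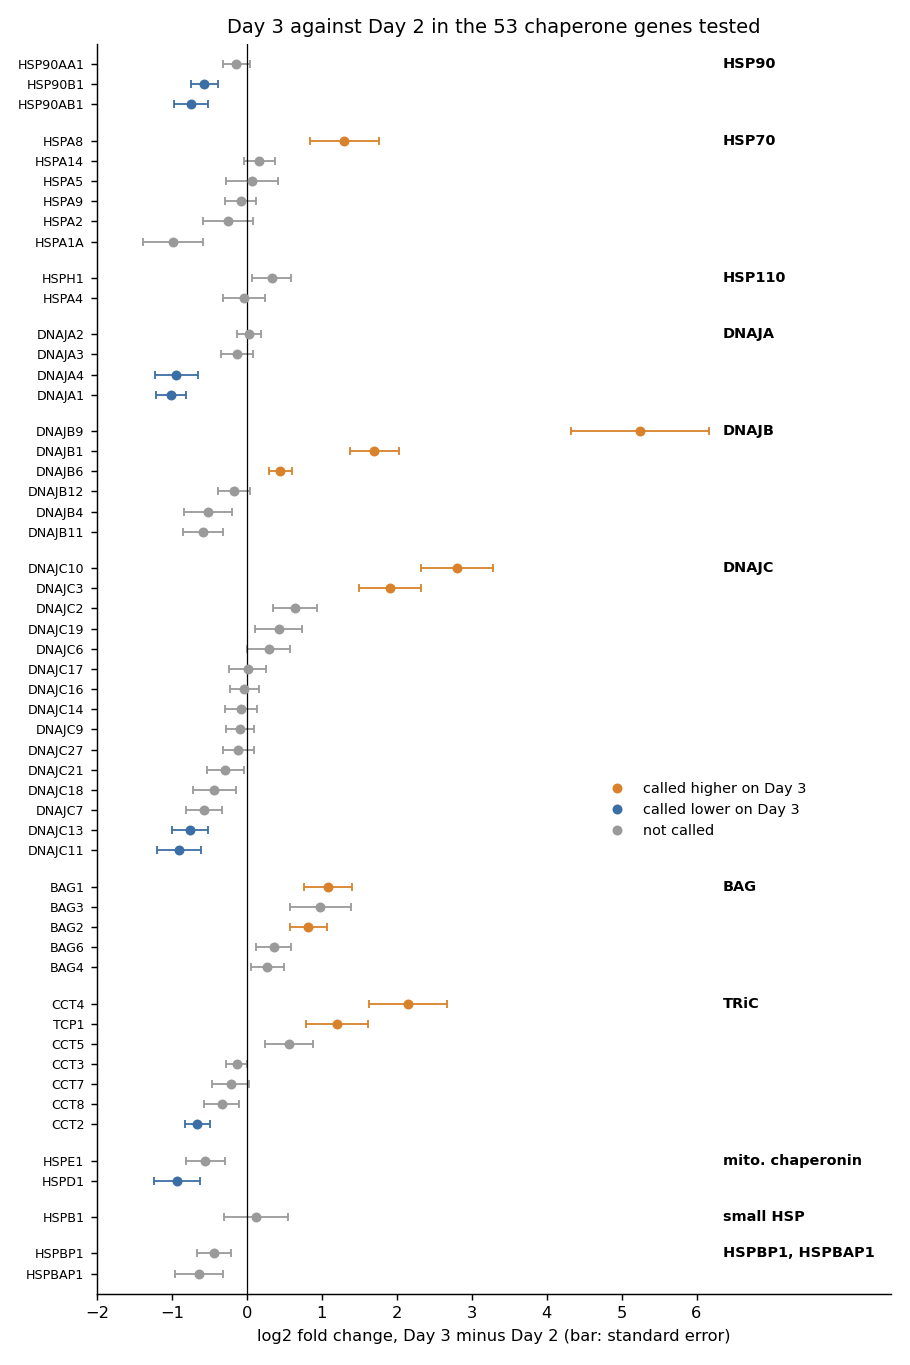
Log2 fold change of Day 3 against Day 2 (x axis) for the 53 chaperone genes tested, grouped by class, with bars of 1 standard error; colours mark genes called higher, lower or not called by edgeR. The 10 called rises run from 0.45 (DNAJB6) to 5.25 (DNAJB9) and the 8 called falls from -0.57 (HSP90B1) to -1.01 (DNAJA1).

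HSP90 mRNA was the most abundant of the classes, its sum was lower on Day 3, and 2 of its 3 genes were called lower, where 11.13% of all genes tested were. The 3 genes held 5784 ± 564 CPM in Day 2 embryos (SD, n = 6) and 3828 ± 1025 CPM in Day 3 embryos (SD, n = 8), a ratio of 0.662 (0.789 with TMM scaling). Of the Day 3 embryos, 7 lay below the lowest Day 2 embryo, from 2101 CPM in Day3-E4 to 4915 CPM in Day3-E3, and Day3-E2 with 5147 CPM lay within the Day 2 range.

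HSP90AB1, the constitutive cytosolic HSP90, had 1293, 1378 and 1641 CPM in the lowest, median and highest Day 2 embryos and 275, 659 and 1074 CPM in those of Day 3. The days did not overlap, and the lowest value was that of Day3-E4. Its log2 fold change was -0.75 (standard error 0.23, edgeR adjusted p = 0.0193). HSP90AA1, the heat-inducible form and the most abundant chaperone mRNA, had 2722, 3229 and 4048 CPM on Day 2 and 1515, 2542 and 3319.6 CPM on Day 3. Here 3 Day 3 embryos lay within the Day 2 range, and the log2 fold change of -0.14 (standard error 0.18) was not called (edgeR adjusted p = 0.563). The ratio of HSP90AB1 to HSP90AA1 within an embryo was 0.43 ± 0.07 (SD, n = 6) for Day 2 embryos and 0.27 ± 0.06 (SD, n = 8) for those of Day 3, with 6 of 8 Day 3 embryos below every Day 2 embryo. HSP90B1, the HSP90 of the ER, had 942, 1056 and 1090.0 CPM on Day 2 and 311, 637 and 844 CPM on Day 3. All 8 Day 3 embryos lay below all Day 2 embryos, and the log2 fold change was -0.57 (standard error 0.18, edgeR adjusted p = 0.0233). In embryos of the first barcode set alone, HSP90AB1 had a log2 fold change of -0.37 (edgeR adjusted p = 0.216) and HSP90B1 one of -0.27 (edgeR adjusted p = 0.455), and neither was called. Within suffix p2 alone neither was called, with -0.82 for HSP90AB1 (edgeR adjusted p = 0.184) and -0.85 for HSP90B1 (edgeR adjusted p = 0.12).

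**Figure D2:**
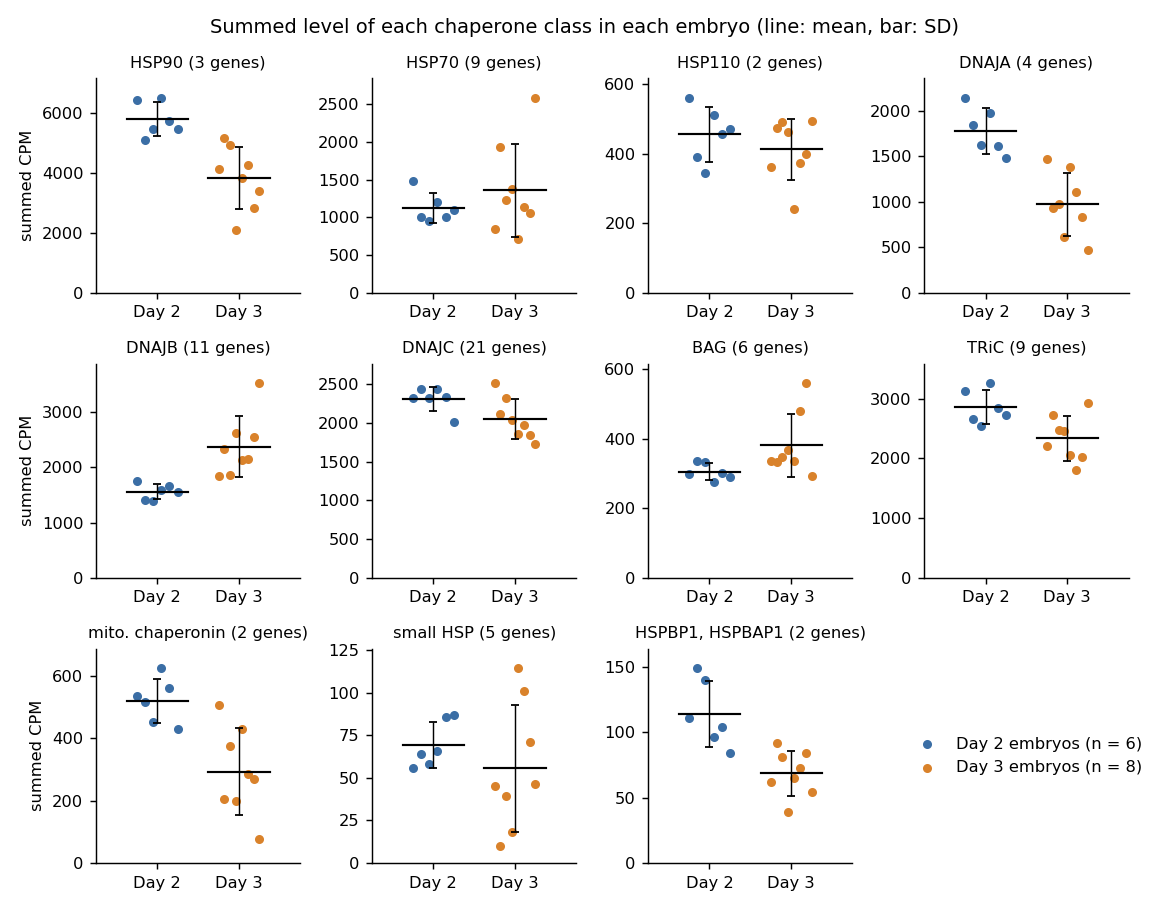
Summed CPM (y axis, from 0) of the genes of each chaperone class in each of the 6 Day 2 and 8 Day 3 embryos, with the mean as a line and the SD as a bar. The days do not overlap for DNAJA, where all Day 3 embryos lie below, and for DNAJB, where all lie above. In both, the nearest embryos of the days differ by no more than counting error. The other classes overlap.

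Among the HSP70 genes, HSPA8 rose while the others tested were not called by edgeR, and DESeq2 also called HSPA1A lower. The class summed to 1124 ± 195 CPM on Day 2 (SD, n = 6) and 1362 ± 619 CPM on Day 3 (SD, n = 8). The Day 3 embryos spread from 707 CPM in Day3-E5 to 2587 CPM in Day3-E8, both outside the Day 2 range of 955 to 1479 CPM. The ratio of the day means was 1.21 over all embryos, 0.795 among embryos whose titles end in p3 and 1.74 among those ending in p2, so its direction differed between these sets.

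HSPA8, the constitutive cytosolic HSP70 that also uncoats clathrin vesicles, had 308, 427 and 709.6 CPM in the lowest, median and highest Day 2 embryos and 253, 725 and 1969 CPM in those of Day 3. Day3-E8 was the highest, Day3-E1 and Day3-E5 lay below the Day 2 range, and the groups overlapped. The log2 fold change was 1.302 (standard error 0.46, edgeR adjusted p = 0.0401). Its adjusted p was the highest of the 10 rises. The mean went from 476 to 532 CPM among embryos with suffix p3 and from 427 to 1323 CPM among those with p2. The call was lost, with edgeR adjusted p of 0.0512 to 0.0988, when any 1 of Day2-E2 to Day2-E6, Day3-E2, Day3-E4, Day3-E6, Day3-E7 or Day3-E8 was left out, and with an adjusted p of 0.0652 without TMM scaling. It was also lost with no filter on low counts (0.0795), with the title suffix as a covariate (log2 fold change 1.16, edgeR adjusted p = 0.147) and with that covariate in suffixes p2 and p3 alone (0.0739). Without Day3-E8 its log2 fold change was 0.83.

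HSPA1A, the stress-inducible HSP70, had 34.3, 75.3 and 139 CPM on Day 2 and 8.97, 25.8 and 74.6 CPM on Day 3, with 5 Day 3 embryos below the Day 2 range and 3 within it. Its log2 fold change of -0.99 (standard error 0.40) was not called with all embryos (edgeR adjusted p = 0.067), but was called when Day2-E3, Day3-E1 or Day3-E2 was left out (edgeR adjusted p = 0.0299, 0.0313 and 0.0336), without TMM scaling (0.0305), and with the title suffix as a covariate (log2 fold change -1.72, edgeR adjusted p = 0.018). DESeq2 called it over all embryos (adjusted p = 0.0335). The ratio of HSPA8 to HSPA1A had a median of 5.21 in Day 2 embryos and 21.9 in Day 3 embryos. Of the 8 Day 3 embryos, 7 exceeded the highest Day 2 value of 9.12, and Day3-E1, with 3.62, was the exception. HSPA1A had only 3, 7, 5 and 9 UMI in Day3-E4, Day3-E5, Day3-E7 and Day3-E8, so the size of their ratios is uncertain by counting error. HSPA1A belongs to a group of near-identical HSP70 gene copies, so its count may hold reads of a neighbour or lack its own.

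HSPA2, an HSP70 best known from the testis, had 101, 125 and 188 CPM on Day 2 and 28.6, 97.0 and 142 CPM on Day 3 and was not called (edgeR adjusted p = 0.59). Within suffix p3 it went from 139 to 40.6 CPM and was called lower (edgeR adjusted p = 0.00413), and within p2 it had 115 and 113 CPM. HSPA14, which sits on the ribosome and receives new chains, was at 118 ± 28.4 CPM (SD, n = 6) and 112 ± 33.2 CPM (SD, n = 8), with 6 of 8 Day 3 embryos within the Day 2 range. Neither gene separated the days. HSPA1L, HSPA13 and HSPA12B were too low to be tested, with means over all embryos of 16.0, 6.72 and 0.724 CPM.

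Neither nucleotide exchange factor of the HSP110 family was called over all embryos. HSPH1 had 231 ± 43.5 CPM on Day 2 (SD, n = 6) and 232 ± 69.6 CPM on Day 3 (SD, n = 8), and HSPA4 had 224 ± 53.2 and 179.6 ± 72.9 CPM. The log2 fold changes were 0.33 (standard error 0.26) and -0.04 (standard error 0.27) (edgeR adjusted p = 0.335 and 0.927). Their sum had a ratio of 0.905 between the days in CPM and 1.12 with TMM scaling, and of 0.681 within suffix p3 and 0.964 within p2. Within p3 HSPA4 had 234 and 105 CPM and was called lower (edgeR adjusted p = 0.028).

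The 3 J-domain families differed in the direction of their sums, which carry no test. DNAJA went from 1776 ± 251 CPM (SD, n = 6) to 972 ± 345 CPM (SD, n = 8), and every Day 3 embryo lay below every Day 2 embryo (highest Day 3 value 1466 CPM in Day3-E1, lowest Day 2 value 1474 CPM in Day2-E6). DNAJB went from 1561 ± 140.0 CPM to 2378 ± 547 CPM, and every Day 3 embryo lay above every Day 2 embryo (lowest Day 3 value 1839 CPM in Day3-E1, highest Day 2 value 1759 CPM in Day2-E1). As 1 UMI is 1.67 CPM in Day3-E1 and 2.28 CPM in Day2-E6, the DNAJA gap is a few UMI wide and less than counting error. The DNAJB gap is not beyond counting error either. The directions of both sums held with TMM scaling, with ratios of 0.634 for DNAJA and 1.92 for DNAJB. They held within each title suffix too, with ratios of 0.657 (p3) and 0.420 (p2) for DNAJA and of 1.39 (p3) and 1.90 (p2) for DNAJB. DNAJC was 2312 ± 156 CPM on Day 2 and 2050 ± 262 CPM on Day 3, a ratio of 0.887 that became 1.07 with TMM scaling.

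The DNAJA sum was carried by DNAJA1, which held 60.1% of it on Day 2 and 47.2% on Day 3. DNAJA1, a general partner of HSPA8 that hands it unfolded chains, had 838, 998 and 1376 CPM in the lowest, median and highest Day 2 embryos and 221, 449 and 701 CPM in those of Day 3. The days did not overlap, Day3-E1 being the highest and Day3-E4 and Day3-E8 the lowest of Day 3. Its log2 fold change was -1.01 (standard error 0.20, edgeR adjusted p = 0.00156), and it was called whichever embryo was left out. Within suffix p2 alone its log2 fold change of -1.08 was not called (edgeR adjusted p = 0.0711). DNAJA4, a related partner, had 180.0, 226 and 261 CPM on Day 2 and 23.2, 111 and 198 CPM on Day 3, with Day3-E1 the 1 Day 3 embryo inside the Day 2 range (log2 fold change -0.94, standard error 0.29, edgeR adjusted p = 0.0212). DNAJA2, the other cytosolic member, was not called, with 396 ± 38.9 CPM (SD, n = 6) and 342 ± 97.7 CPM (SD, n = 8). With TMM scaling its day means were 355 and 361 CPM, and the log2 fold change was 0.03 (standard error 0.16, edgeR adjusted p = 0.918). DNAJA3, the mitochondrial member, had 89.8 ± 9.50 and 70.3 ± 30.5 CPM and was not called (edgeR adjusted p = 0.648).

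Within DNAJB the leading gene changed. DNAJB6, which holds aggregation-prone proteins in solution, led on Day 2 with 49.4% of the class, and DNAJB1 led the Day 3 mean with 49.8%. In Day3-E1, Day3-E3 and Day3-E5 DNAJB6 was still the higher, with 933, 864 and 969.5 CPM against 593, 749 and 931 CPM of DNAJB1. DNAJB1, the J-domain partner of HSPA8 in dissolving aggregates, had 406, 448 and 551 CPM in the lowest, median and highest Day 2 embryos and 593, 1134 and 2201 CPM in those of Day 3. Every Day 3 value exceeded every Day 2 value, with Day3-E1 the lowest and Day3-E8 the highest. The log2 fold change was 1.703 (standard error 0.33, edgeR adjusted p = 0.00116), and in embryos of the first barcode set alone it was 1.16 (edgeR adjusted p = 0.047). Its mean was higher on Day 3 within both suffixes, from 463 to 1004 CPM for p3 and from 479 to 1799 CPM for p2. DNAJB6 varied little, with 646, 788 and 898 CPM on Day 2 and 746, 861 and 969.5 CPM on Day 3, and 6 of 8 Day 3 embryos lay within the Day 2 range. Its log2 fold change of 0.45 (standard error 0.15, edgeR adjusted p = 0.0337) lost its call when any 1 of the 6 Day 2 embryos, Day3-E6, Day3-E7 or Day3-E8 was left out (edgeR adjusted p of 0.0549 to 0.143), without TMM scaling (0.381), with no filter on low counts (0.175), and with the title suffix as a covariate, over all embryos (0.057) or those of p2 and p3 (0.0552). The DNAJB6 call was also lost when only cells with 10000 or more UMI were summed.

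DNAJA1 was the highest cytosolic J-domain mRNA in every Day 2 embryo, while on Day 3 DNAJB1 was the highest in 5 embryos and DNAJB6 in the other 3, named above. The ratio of DNAJA1 to DNAJB1 was 1.72, 2.28 and 2.94 in the lowest, median and highest Day 2 embryos and 0.10, 0.44 and 1.18 in those of Day 3. The days did not overlap, and Day3-E1 alone among the Day 3 embryos had more DNAJA1 than DNAJB1.

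**Figure D3:**
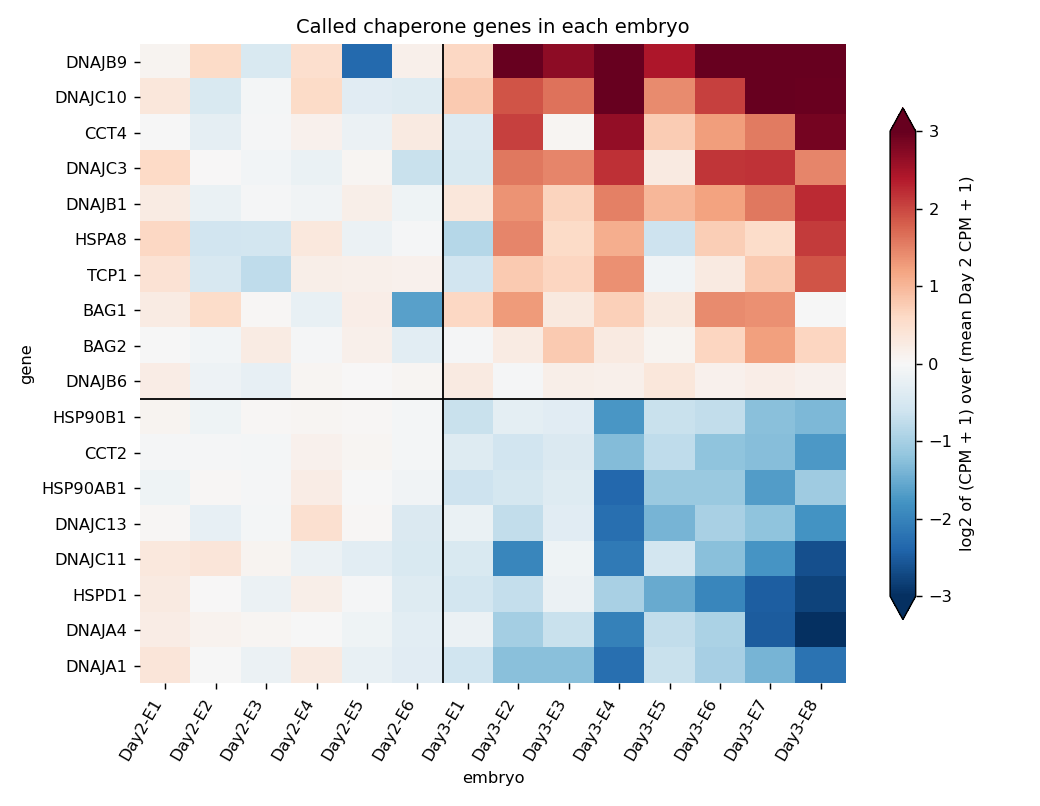
Level of the 18 called chaperone genes (rows) in each of the 14 embryos (columns) as log2 of (CPM + 1) over (mean Day 2 CPM + 1); red is above and blue below the Day 2 mean, and colours end at 3 log2 units on either side. Day3-E1 is pale in most rows and Day3-E4 and Day3-E8 hold most of the deepest colours.

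The DNAJC family is a mixed group whose members share the J domain and work at very different places. Of its 21 genes 15 were tested, 2 rose (DNAJC10 and DNAJC3, both of the ER), 2 fell and 11 were not called. DNAJC13, which acts on endosomes, had 173, 232 and 327 CPM on Day 2 and 47.8, 109 and 203 CPM on Day 3 (log2 fold change -0.76, standard error 0.24, edgeR adjusted p = 0.0241). DNAJC11, a mitochondrial protein linked to the organisation of cristae, had 50.1, 66.7 and 89.1 CPM on Day 2 and 10.297, 23.9 and 62.8 CPM on Day 3 (log2 fold change -0.91, standard error 0.29, edgeR adjusted p = 0.0259). Day3-E1 and Day3-E3 lay within the Day 2 range for DNAJC13, and Day3-E3 did so for DNAJC11. DNAJC11 passed the filter through its Day 2 embryos, being too low in some Day 3 embryos. With no filter on low counts its log2 fold change was -0.97 (standard error 0.31, edgeR adjusted p = 0.0294). The DNAJC13 call was lost without Day2-E4 (edgeR adjusted p = 0.0543), and that of DNAJC11 without Day2-E1 (0.0519) or Day2-E2 (0.0619). Within suffix p2 alone DNAJC13 was not called (log2 fold change -0.92, edgeR adjusted p = 0.132). DNAJC11 was called neither within p2 (-1.44, edgeR adjusted p = 0.0926) nor within p3 (-0.88, edgeR adjusted p = 0.0649).

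The 3 most abundant DNAJC genes were not called by edgeR over all embryos. DNAJC7, which links HSP70 with HSP90, was the highest of the class on Day 2 with 397 ± 42.4 CPM (SD, n = 6) and had 232 ± 119 CPM on Day 3 (SD, n = 8), with 7 of 8 Day 3 embryos below the Day 2 range and Day3-E1 within it. Its log2 fold change of -0.57 (standard error 0.25) missed the threshold with all embryos (edgeR adjusted p = 0.0813) and passed it without Day3-E1 (0.0252), without TMM scaling (0.0463) and with the title suffix as a covariate (0.0265). DESeq2 called it lower (adjusted p = 0.0474). DNAJC9, a partner of histone H3, had 318 ± 16.201 and 257 ± 101 CPM, and DNAJC2, which sits on the ribosome with HSPA14, had 189 ± 38.2 and 233 ± 85.6 CPM. For DNAJC2 the highest embryos were Day3-E8 with 391 CPM and Day3-E4 with 326 CPM, against a highest Day 2 value of 237 CPM, while for DNAJC9 these embryos were among the lowest with 126 and 197 CPM.

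The BAG genes, grouped here by name and not all exchange factors, summed to 305 ± 23.8 CPM on Day 2 (SD, n = 6) and 381 ± 90.7 CPM on Day 3 (SD, n = 8), a ratio of 1.25 (1.52 with TMM scaling). Of 5 genes tested, 2 rose. BAG2, which restrains the ubiquitin ligase STUB1, had 43.3, 53.4 and 64.6 CPM on Day 2 and 53.3, 75.4 and 129 CPM on Day 3, with 5 of 8 Day 3 embryos above the Day 2 range (log2 fold change 0.82, standard error 0.25, edgeR adjusted p = 0.0187). That call was lost without Day2-E6 (edgeR adjusted p = 0.0517) and without TMM scaling (0.0795). BAG1 had 6.84, 25.3 and 34.8 CPM on Day 2 and 23.2, 37.8 and 63.6 CPM on Day 3, also with 5 of 8 Day 3 embryos above the range (log2 fold change 1.08, standard error 0.32, edgeR adjusted p = 0.0181). BAG1 passed the filter through its Day 3 embryos, being too low in some Day 2 embryos. The fit with no filter on low counts is therefore given too (log2 fold change 1.00, edgeR adjusted p = 0.0358). The BAG1 call was lost without TMM scaling as well (0.0566). It was also lost within suffix p3 alone (log2 fold change 0.99, edgeR adjusted p = 0.0949) and p2 alone (1.56, edgeR adjusted p = 0.129). BAG6, which guards newly made membrane proteins, was the most abundant of the class with 121 ± 21.7 and 131 ± 46.5 CPM, and BAG4 had 63.8 ± 9.94 and 63.3 ± 13.23 CPM. Neither was called by edgeR (adjusted p = 0.248 and 0.357).

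TRiC is a double ring built from different CCT subunits in equal numbers, which folds actin and tubulin among others. Its mRNAs were far from equal, and in 6 of 8 Day 3 embryos they were closer to each other than in any Day 2 embryo. CCT2 and CCT3 stood at 865 ± 44.9 and 735 ± 73.8 CPM on Day 2 (SD, n = 6), while TCP1 and CCT4 stood at 121 ± 35.2 and 73.3 ± 10.2019 CPM. Over the 7 subunit genes with UMI in every embryo, the highest was 9.41 to 13.79 times the lowest in each Day 2 embryo. In Day 3 embryos this factor was 12.4 in Day3-E1, 10.07 in Day3-E3 and 3.162 to 8.11 in the other 6, with the smallest value in Day3-E8. The sum of the TRiC genes was 2861 ± 278 CPM on Day 2 (SD, n = 6) and 2334 ± 381 CPM on Day 3 (SD, n = 8), a ratio of 0.816 that became 1.01 with TMM scaling.

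Of the 7 subunits tested, CCT2 fell and CCT4 and TCP1 rose. CCT2 had 829.8, 844 and 944 CPM in the lowest, median and highest Day 2 embryos and 260.0, 443 and 661 CPM in those of Day 3, without overlap (log2 fold change -0.66, standard error 0.17, edgeR adjusted p = 0.00681). Within suffix p2 alone its log2 fold change of -1.08 was not called (edgeR adjusted p = 0.0607). CCT4 had 60.9, 72.0 and 88.9 CPM on Day 2 and 55.0, 196 and 538 CPM on Day 3 (log2 fold change 2.149, standard error 0.52, edgeR adjusted p = 0.00593). Day3-E8 and Day3-E4 were the highest for CCT4, Day3-E3 lay within the Day 2 range and Day3-E1 below it. TCP1 had 71.2, 134 and 165 CPM on Day 2 and 81.6, 199 and 451 CPM on Day 3 (log2 fold change 1.21, standard error 0.41, edgeR adjusted p = 0.0341), with 5 of 8 Day 3 embryos above the range. The TCP1 call was lost when any 1 of Day2-E2 to Day2-E6, Day3-E4, Day3-E7 or Day3-E8 was left out (edgeR adjusted p of 0.0535 to 0.0846), without TMM scaling (0.0568), and with the title suffix as a covariate, over all embryos (0.123) or those of p2 and p3 (0.0537). Without Day3-E8 the log2 fold change of TCP1 was 0.80.

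The other subunits were not called over all embryos with TMM scaling. CCT3 had 673, 722 and 878 CPM on Day 2 and 396, 554 and 765 CPM on Day 3 (log2 fold change -0.14, standard error 0.15, edgeR adjusted p = 0.486). CCT8 had 472, 614 and 837 CPM on Day 2 and 254, 416 and 583 CPM on Day 3 (log2 fold change -0.33, standard error 0.23, edgeR adjusted p = 0.275), and was called lower without TMM scaling (0.0351) and within suffix p3 (0.0245). For CCT3 and CCT8 alike, 6 of 8 Day 3 embryos lay below the Day 2 range. CCT5 had 278 ± 54.1 CPM on Day 2 and 321 ± 133 CPM on Day 3, and CCT7 had 160.2 ± 18.7 and 111 ± 33.9 CPM. For CCT5 the 2 embryos above the Day 2 range were again Day3-E8 with 553 CPM and Day3-E4 with 487 CPM. CCT6A and CCT6B, alternative forms of 1 position in the ring, were too low to be tested, with 3 UMI on Day 2 and 18 on Day 3 for CCT6A and 38 and 22 for CCT6B. At this depth, RNA for that position was counted far below that of the other subunits on both days.

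**Figure D4:**
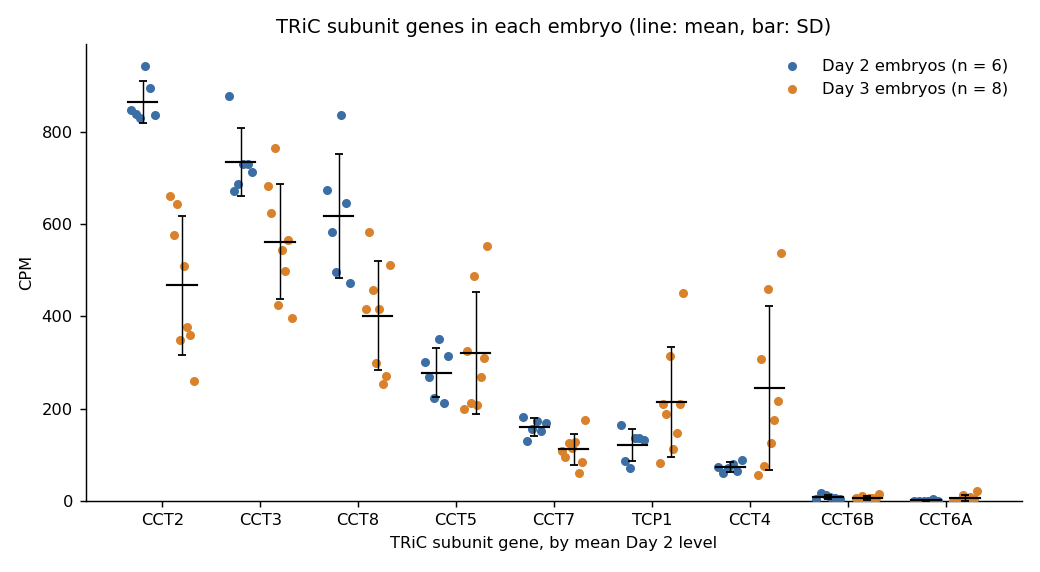
CPM (y axis, from 0) of each TRiC subunit gene (x axis, ordered by mean Day 2 level) in each of the 6 Day 2 and 8 Day 3 embryos, with the mean as a line and the SD as a bar. CCT2 is lower and CCT4 mostly higher in Day 3 embryos, and CCT6B and CCT6A lie near 0 on both days.

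By compartment, chaperones of the cytosol and nucleus (50 genes) held 13996 ± 1339 CPM on Day 2 (SD, n = 6) and 11864 ± 1372 CPM on Day 3 (SD, n = 8), a ratio of 0.848 that became 1.04 with TMM scaling. Those of the mitochondrion (8 genes) had 898 ± 71.4 and 580.4 ± 192 CPM, a ratio of 0.646 (0.752 with TMM scaling). The ER genes (9) had 1485 ± 82.3 and 1309 ± 213 CPM, a ratio of 0.881 that became 1.09 with TMM scaling. The other 7 genes were assigned to no compartment and held 500.3 ± 39.6 and 379 ± 87.1 CPM. In the cytosol and nucleus 7 of 37 tested genes rose and 5 fell, in the mitochondrion 0 of 6 rose and 2 fell, and in the ER 3 of 7 rose and 1 fell. The 3 ER rises include DNAJB9, tested through its Day 3 counts alone, while the ER genes HSPA13 and DNAJB14 were too low on both days to be tested. The 2 mitochondrial falls include DNAJC11, which passed the filter through its Day 2 embryos. Over all genes tested 21.16% rose and 11.13% fell, so the share of rises in the cytosol and nucleus was near that of all genes, and the counts of the mitochondrion and the ER are small.

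The 2 genes of the mitochondrial chaperonin summed to 519 ± 71.2 CPM on Day 2 (SD, n = 6) and 293 ± 139 CPM on Day 3 (SD, n = 8), and the days overlapped. HSPD1, which forms the ring, had 86.6, 112 and 137 CPM in the lowest, median and highest Day 2 embryos and 15.45, 47.9 and 99.5 CPM in those of Day 3 (log2 fold change -0.93, standard error 0.31, edgeR adjusted p = 0.0294). The Day 3 values were 76.6, 67.8 and 99.5 CPM in Day3-E1, Day3-E2 and Day3-E3, which had the ERCC share of the Day 2 embryos, and 56.8, 39.0, 28.5, 19.4 and 15.45 CPM in Day3-E4 to Day3-E8, which had the higher share. The part of the barcode set and of the spike-in share in this fall was not tested, and in embryos of the first set alone the log2 fold change was -0.47 (edgeR adjusted p = 0.321). With the title suffix as a covariate it was -1.83 (edgeR adjusted p = 0.00029).

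HSPE1, the lid of the chaperonin, had 344, 399.8 and 496 CPM on Day 2 and 61.8, 253 and 429.9 CPM on Day 3. It was not called with all embryos (log2 fold change -0.56, standard error 0.26, edgeR adjusted p = 0.107) but was without Day3-E1 (adjusted p = 0.0366). The ratio of HSPD1 to HSPE1 was 0.25 to 0.34 in the Day 2 embryos and spread from 0.08 to 0.50 in the Day 3 embryos, with 3 above and 4 below the Day 2 range. Several Day 3 ratios rest on few UMI, such as 6 of HSPD1 against 77 of HSPE1 in Day3-E7 and 6 against 24 in Day3-E8. The part of counting error in this spread was not tested. HSPA9, the mitochondrial HSP70, had 166 ± 19.6 CPM on Day 2 (SD, n = 6) and 129 ± 33.9 CPM on Day 3 (SD, n = 8), and the log2 fold change was -0.08 (standard error 0.21, edgeR adjusted p = 0.781). The mitochondrial J-domain genes DNAJC19, DNAJC30 and DNAJC15 were scarce, with means over all embryos of 22.4, 17.2 and 16.16 CPM. HSPE1, HSPA8 and HSP90AA1 have processed pseudogenes, so reads of near-identical copies may be missing from or mixed into their counts.

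In the ER, the J-domain partners DNAJB9, DNAJC10 and DNAJC3 rose, HSP90B1 fell, and HSPA5 was not called. DNAJB9 binds HSPA5 and is a known target of the unfolded protein response. It had 0, 4.42 and 6.52 CPM in the lowest, median and highest Day 2 embryos, and 6.66, 83.5 and 293 CPM in those of Day 3. These are 16 UMI in all Day 2 embryos together and 339 UMI in all Day 3 embryos, a ratio of 27.1 per UMI on genes (95% exact binomial interval 16.42 to 47.9, for counting error only). Day2-E5 had 0 UMI, which allows up to 3.84 CPM. Day3-E1 had 4 UMI and exceeded the highest Day 2 embryo by less than counting error, while the other Day 3 embryos had 26.0 CPM or more. The fitted log2 fold change was 5.25 (standard error 0.92). DNAJB9 reached the level needed for testing through its Day 3 counts alone, so this value is given as a description; with no filter on low counts, where that selection plays no part, it was 5.10 (standard error 0.96, edgeR adjusted p = 0.00241). By cell, 30.2% of Day 2 and 69.5% of Day 3 cells had a DNAJB9 UMI, at median depths of 75114 and 24016.5 UMI per cell; no cell type that should lack the gene was at hand to give a background share. With cells of 10000 or more UMI thinned to 10000, 0 of 37 Day 2 cells had one, and 52.4% of 103 Day 3 cells did. The count of 0 allows up to 8.11% of Day 2 cells with a UMI at that thinned depth, if the 37 cells are taken as independent, which cells of 1 embryo are not. Before thinning 13 of 43 had one, so this limit bounds detection and not expression.

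DNAJC10, which reduces disulfide bonds of misfolded ER proteins, had 30.4, 37.1 and 63.9 CPM on Day 2 and 73.3, 169.5 and 478 CPM on Day 3. Again every Day 3 value exceeded every Day 2 value, with Day3-E1 the lowest and Day3-E4 the highest, and the log2 fold change was 2.81 (standard error 0.48, edgeR adjusted p = 0.000577). It kept its call in embryos of the first barcode set alone, with 1.64 (edgeR adjusted p = 0.047). DNAJC3, which serves HSPA5 and was first known as an inhibitor of the kinase PKR, had 22.8, 35.6 and 55.6 CPM on Day 2 and 26.7, 107 and 170.4 CPM on Day 3 (log2 fold change 1.91, standard error 0.41, edgeR adjusted p = 0.0026). For DNAJC3, Day3-E1 and Day3-E5 lay within the Day 2 range and the other 6 Day 3 embryos above it.

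HSPA5, the HSP70 of the ER that these partners serve, had 112, 128 and 179 CPM on Day 2 and 61.4, 95.8 and 249.7 CPM on Day 3. Day3-E8 alone lay above the Day 2 range and 5 Day 3 embryos lay below it, and the log2 fold change was 0.07 (standard error 0.35, edgeR adjusted p = 0.9). The suffixes went different ways, with a log2 fold change of -0.90 among embryos with p3 (144 to 69.5 CPM, edgeR adjusted p = 0.024) and of 0.95 among those with p2 (116 to 156 CPM, edgeR adjusted p = 0.311), a difference that was not tested. DNAJB11, a secreted partner of HSPA5, had 103, 165 and 192 CPM on Day 2 and 48.2, 79.6 and 131 CPM on Day 3 and was not called (log2 fold change -0.58, standard error 0.26, edgeR adjusted p = 0.0985), but was when Day3-E8 (adjusted p = 0.00956) or Day2-E6 (0.0497) was left out, without TMM scaling (0.011) and within suffix p3 (0.00197). DNAJB12, a J-domain protein of the ER membrane, had 48.5 ± 6.97 and 36.5 ± 13.19 CPM.

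**Figure D5:**
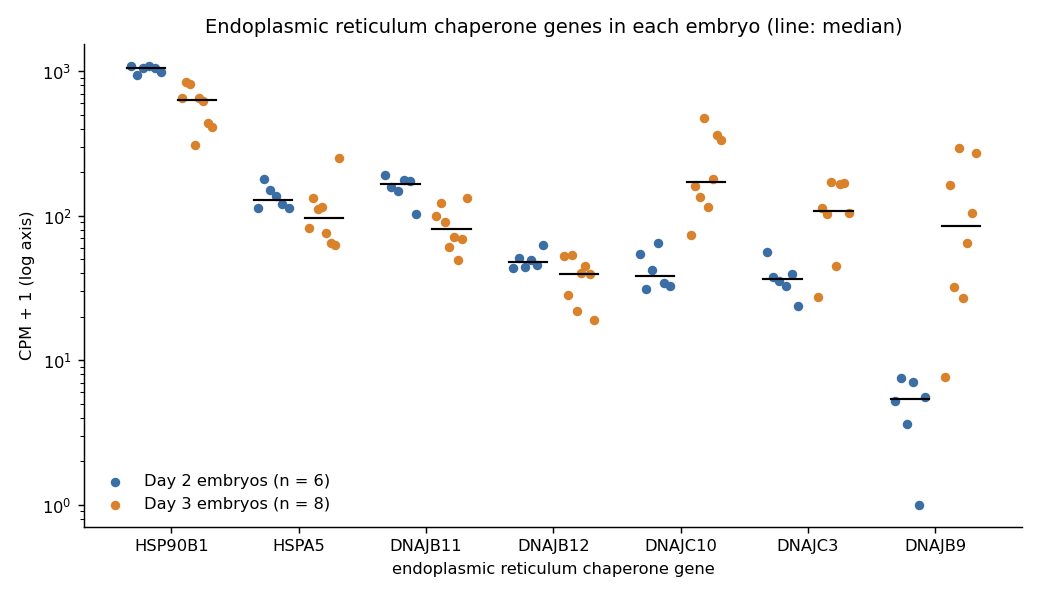
CPM + 1 (y axis, log scale) of the 7 tested ER chaperone genes (x axis) in each of the 6 Day 2 and 8 Day 3 embryos, with the median as a line. DNAJC10 lies higher in every Day 3 embryo, DNAJB9 does so with its lowest Day 3 embryo next to the Day 2 values, HSP90B1 lies lower in every one, and HSPA5 overlaps between the days.

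Small heat shock proteins, which bind unfolding proteins without using ATP, were scarce, with 69.3 ± 13.61 CPM on Day 2 (SD, n = 6) and 55.6 ± 37.2 CPM on Day 3 (SD, n = 8) over 5 genes. HSPB1, the only one tested, had 40.9, 45.3 and 62.7 CPM on Day 2. On Day 3 no embryo fell within that range: Day3-E5, Day3-E6 and Day3-E7 had 96.2, 87.7 and 71.1 CPM and the other 5 had 3.39 to 31.4 CPM. It was not called by edgeR (log2 fold change 0.13, standard error 0.43, adjusted p = 0.848), but was in suffixes p2 and p3 with the suffix as a covariate (0.79, adjusted p = 0.0347). HSPB11, now known as a subunit of intraflagellar transport, had 19.0 ± 8.63 and 7.88 ± 6.37 CPM and HSPB6 1.23 ± 1.09 and 1.35 ± 1.90 CPM, both too low to be tested. HSPB2 and HSPB3 had at most 3 UMI on either day.

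HSPBP1 and HSPBAP1 carry the letters HSPB without being small heat shock proteins. HSPBP1, an exchange factor of HSP70, had 85.1 ± 20.8 CPM on Day 2 (SD, n = 6) and 52.9 ± 16.0 CPM on Day 3 (SD, n = 8), and HSPBAP1, a binding partner of HSPB1, had 28.9 ± 6.99 and 15.7 ± 8.17 CPM. For each, 5 of 8 Day 3 embryos lay below the Day 2 range, and neither was called by edgeR (adjusted p = 0.148 and 0.126); with the title suffix as a covariate HSPBAP1 was (log2 fold change -1.19, adjusted p = 0.0395). Without TMM scaling both were called lower (edgeR adjusted p = 0.0362 and 0.0467), and HSPBAP1 was within suffix p3 (0.0411). HSPBAP1 was the lowest of the 53 tested genes with a mean of 21.3 CPM over all embryos. The 21 genes not tested had means from 0.230 CPM (DNAJB3, with 2 UMI on Day 2 and 0 on Day 3, which allows up to 0.952 CPM over the group) to 17.9 CPM (DNAJB5).

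The 8 Day 3 embryos differed in how far their called chaperone genes stood from Day 2. Day3-E1 had the lowest Day 3 value for 8 of the 10 genes that rose and the highest for 4 of the 8 that fell. Day3-E4 and Day3-E8 together had the highest value for 7 of the 10 (3 and 4) and the lowest for all 8 that fell (4 each). Day3-E8 also had the lowest Day 3 value for 1 gene that rose, BAG1 with 23.2 CPM. For the genes that rose, 9 of 10 lay above the Day 2 range in Day3-E4, 8 of 10 in Day3-E2, Day3-E6, Day3-E7 and Day3-E8, 6 in Day3-E3, and 5 in Day3-E1 and Day3-E5. These genes were called from the same values, so a place outside the Day 2 range is partly built in. The same positions were not counted over all called genes, so this order of the embryos is not a result about chaperones. Day3-E1 and Day3-E4 share the title suffix p1. They differ in barcode set and in ERCC share (1.4% and 2.96%), and in TMM factor (1.102 and 0.779, with 0.693 in Day3-E8 and 1.09 to 1.13 in the Day 2 embryos). They differ in developmental timing as well, since by the study's time-lapse records Day3-E1 was the latest of the Day 3 embryos to complete the third cleavage, and Day3-E8 and Day3-E4 were the earliest. The part of these in the spread was not tested. Without Day3-E1, 11 chaperone genes were called higher and 12 lower, and 2158 genes were called in all against 1703 with it.

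The spread between the cells of an embryo was measured for the more abundant chaperone genes. For the 18 chaperone genes with a mean of 200 CPM or more, the variance between cells was divided by that expected from counting, in cells of 10000 or more UMI, and the median over the 14 embryos was taken. This ratio had a median of 1.64 over all 1250 genes at that level, and 9 of the 18 chaperone genes lay above it, so a spread beyond counting is the background of all genes and not a result about chaperones. HSP90AA1 had the highest of the chaperone genes with 4.35, at percentile 97.8 of those genes, followed by DNAJB1 with 2.84, HSPA8 with 2.25 and HSP90AB1 with 2.16. DNAJA2 had 0.893 and HSPH1 1.17, near the value of 1 that counting alone gives. Single embryos ranged from 0.175 to 3.156 for DNAJA2 and from 0.427 to 5.97 for HSPH1, so this holds for the median embryo and not for each. The ratio rises with a gene's level for the same relative spread, and HSP90AA1 was also the most abundant of the 18. It rises with UMI per cell as well, of which the median was 75114 on Day 2 and 24016.5 on Day 3. For HSP90AA1 the ratio ran from 5.33 to 22.8 in Day 2 embryos and from 1.97 to 4.58 in Day 3 embryos, so the median of 4.35 hides a difference between the days.

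Other genes of the folding machinery, from lists set up beside the chaperone genes, were read in the same fit, with each list's median log2 fold change given beside -0.04 over all genes tested. Of 12 tested co-chaperones of HSP90 and HSP70, 1 rose and 0 fell (median -0.14), while DESeq2 called 1 higher and 3 lower and 4 had an unadjusted edgeR p under 0.05. The gene that rose was PTGES3, the p23 protein that closes HSP90 on its client, with 150.5 ± 25.9 CPM on Day 2 (SD, n = 6) and 739 ± 500 CPM on Day 3 (SD, n = 8). The log2 fold change was 2.71 (standard error 0.52, edgeR adjusted p = 0.00117), and 7 of 8 Day 3 embryos lay above the Day 2 range. AHSA1, which speeds up the ATPase of HSP90, was the most abundant with 1331 ± 141 and 1413 ± 368 CPM, and ST13, an HSP70 cofactor, had 457 ± 47.2 and 421 ± 83.4 CPM. Neither was called.

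Prefoldin hands actin and tubulin chains to TRiC. Of 6 tested genes of prefoldin and TRiC cofactors, 0 rose and 1 fell in edgeR and in DESeq2 (median -0.33), and 2 had an unadjusted edgeR p under 0.05. The gene that fell was PFDN1 with 1021 ± 87.7 CPM on Day 2 (SD, n = 6) and 452 ± 290 CPM on Day 3 (SD, n = 8), all Day 3 embryos below all Day 2 embryos (log2 fold change -1.004, standard error 0.31, edgeR adjusted p = 0.0221). PFDN6 and PFDN5 had 289 ± 34.4 and 343 ± 32.6 CPM on Day 2 and 257 ± 41.7 and 214 ± 87.6 CPM on Day 3, and were not called.

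Among 14 tested genes of ER folding and the unfolded protein response, 2 rose and 2 fell (median -0.10). The risers were the transcription factors DDIT3, from 586 ± 29.6 CPM (SD, n = 6) to 1038 ± 330.4 CPM (SD, n = 8), and ATF4, from 334 ± 28.4 to 654 ± 235 CPM, with log2 fold changes of 1.14 and 1.31 (standard errors 0.25 and 0.29, edgeR adjusted p = 0.00265 and 0.00346). HYOU1, the large exchange factor of HSPA5, fell from 123 ± 15.31 to 65.7 ± 30.8 CPM (log2 fold change -0.68, standard error 0.22, edgeR adjusted p = 0.0272), and PDIA5, a disulfide isomerase, fell from 382 ± 32.6 to 221 ± 91.1 CPM (log2 fold change -0.58, standard error 0.21, edgeR adjusted p = 0.0445). PDIA6, another isomerase, had 342 ± 68.0 and 265 ± 82.7 CPM and was not called.

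Of 6 tested genes of mitochondrial folding and proteases 0 were called in either direction by edgeR or DESeq2 (median -0.22), and 1, TRAP1, had an unadjusted edgeR p under 0.05. The most abundant were GRPEL1, the exchange factor of HSPA9, with 648 ± 72.0 CPM on Day 2 (SD, n = 6) and 508 ± 265 CPM on Day 3 (SD, n = 8), and the proteases AFG3L2, with 346 ± 42.9 and 232 ± 90.9 CPM, and YME1L1, with 261 ± 28.3 and 227 ± 44.4 CPM. HSF1, the transcription factor of the heat shock response, had 55.9 ± 15.7 and 59.8 ± 26.1 CPM, and its inhibitor HSBP1 had 40.4 ± 4.86 and 63.0 ± 45.9 CPM. Of these 2 tested genes of the heat shock factor list, 0 were called by edgeR (median 0.68), and 1 had an unadjusted edgeR p under 0.05. DESeq2 called HSBP1 higher. HSF2 was too low to be tested, with 6.47 ± 2.93 and 24.2 ± 23.5 CPM.

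The label was set against cell type markers. Of 12 markers of the oocyte and early embryo 9 were in the table, all 9 were tested, and they summed to 9481 ± 594 CPM on Day 2 (SD, n = 6) and 8170 ± 2884 CPM on Day 3 (SD, n = 8), led by DPPA3, with 4 called lower and 0 higher by edgeR, 5 lower and 1 higher by DESeq2, and 6 at an unadjusted edgeR p under 0.05. Over all genes tested edgeR called 11.13% lower and 21.16% higher, and DESeq2 called 16.89% lower and 25.14% higher. Cumulus and granulosa markers (10 of 14 in the table) summed to 297 ± 34.0 and 246 ± 72.5 CPM, led by HAS2, and the defining granulosa genes AMH, CYP11A1, FOXL2 and INHA had 0 to 10 UMI on either day, as had PTX3. Other genes of that list were counted, with 1021 UMI on Day 2 and 638 on Day 3 for HAS2, 93 and 38 for VCAN, 54 and 79 for INHBA, 1 and 35 for TNFAIP6 and 11 and 5 for FST. The part of cumulus cell RNA in these counts was not tested. Sperm markers (4 of 6 in the table) summed to 2.1201 ± 2.42 and 3.08 ± 3.92 CPM.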

How the data were processed

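The authors mapped the reads to bosTau7 (UCSC) with the ERCC sequences using STAR 2.5.2b, per the labels and the study's methods, and deposited UMI counts per gene and cell made with the Drop-seq pipeline. A deposited normalised copy of these counts was not used. Cells with 2000 or more UMI were summed per embryo, because the embryo and not the cell is the replicate, and ERCC entries (1.78% of UMI) were left out of library sizes and tests. Day 3 (8 embryos) was set against Day 2 (6 embryos) with edgeR 4.0.16 in R 4.3.3 (TMM, filterByExpr, robust quasi-likelihood test, Benjamini-Hochberg adjusted p under 0.05) over 5274 genes, after a check on simulated counts. DESeq2 1.42.0 was an alternative. Tables and plots used Python 3.11.15, pandas 2.3.3 and matplotlib 3.10.9. Limits for a count of 0 are 3 UMI, and intervals cover counting error only.

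Genes were named by this rule: the 3 highest of each class, the 5 largest called rises and falls, all tested members of HSP90, HSP70, HSP110 and the chaperonins, and in related lists the 3 highest and the largest calls, and classes of 5 or fewer genes were named in full. BAG1 was named because it was called, and DNAJB12, DNAJB14, DNAJC5, DNAJC12, DNAJC15, DNAJC19, DNAJC30, DNAJB3, DNAJB4, DNAJB5, BAG3, HSPA1L, HSPA13, HSPA12B, CCT6A, CCT6B and TRAP1 fall outside the rule and were named after their values were seen. The members and lists were chosen with earlier results of these data known. The labels name separate embryos and do not say whether they shared a culture. Sequences and gene positions were not analysed here.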

Additional observations from a re-analysis of the deposited data

Results flagged for a closer look

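In 5 of 116 groups of embryos checked, 1 embryo stood far from the others for its group's range. Chance alone gives about 1 in 20, so the number flagged is no more than chance gives. For the DNAJB sum on Day 3, Day3-E8 had 3529 CPM against 2618 CPM in the next embryo. For the DNAJC sum on Day 2, Day2-E6 had 2014 CPM against 2318 CPM in the next lowest. For CCT3 on Day 2, Day2-E1 had 878 CPM against 731 CPM. For HSPA2 on Day 2, Day2-E1 had 188 CPM against 129.9 CPM. For HSPA5 on Day 3, Day3-E8 had 249.7 CPM against 132 CPM.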

How the results depend on the processing

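With library totals in place of TMM, 5 chaperone genes were called higher and 14 lower, and 47.8% against 65.5% of all calls were higher. With only cells of 10000 or more UMI, 9 were called higher and 8 lower among 1701 genes called, DNAJB6 being lost. With cells thinned to 10000 UMI, 5 were called higher and 5 lower among 721 genes called. With the first barcode set alone, the counts were 2 and 0 among 175. Within suffix p3 7 chaperone genes were called higher and 14 lower, among 902 and 555 of all 5945 genes. Within p2 8 were called higher and 4 lower, among 1008 and 472 of all 5305 genes. Of the 10 higher and 8 lower genes, p3 kept 5 and 7, and p2 kept 8 and 2. HSPA5 turned to a log2 fold change of -0.90 within p3 and was at 0.95 within p2. With the suffix as a covariate 8 were called higher and 11 lower, and in p2 and p3 alone 9 and 12; 7 of the 10 higher and all 8 lower genes were kept in both fits. Leaving out 1 embryo gave 6 to 11 higher, 7 to 12 lower and 1319 to 2158 genes called in all; 6 of the 10 higher and 6 of the 8 lower genes were called in all 14 of these fits. The cause of these changes was not tested. A replicate block on embryo number called 3 higher and 3 lower among 801 genes, but the numbers name different embryos, and same-numbered embryos did not deviate together (correlations -0.13 to 0.03). DESeq2, DESeq2 size factors, no filter on low counts and all cells kept the chaperone counts within 1.5 times, but DESeq2 added BAG3, DNAJC7 and HSPA1A, and with no filter 8 of the 10 higher genes were kept, HSPA8 and DNAJB6 being lost and CCT6A, DNAJC12 and DNAJC5 added. For the class and compartment ratios, 313 alternatives moved by less than the spread between embryos and 7 by more: small HSP was at 1.77 within p3, and with CPM divided by the TMM factor, chosen after seeing the data, TRiC was at 1.01, DNAJB 1.92, DNAJC 1.07, all chaperone genes 1.02, the cytosol and nucleus 1.04 and the ER 1.09. Depth limits the 21 genes not tested.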
